A study of Arabidopsis thaliana with 9 samples.

Results

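The light-harvesting and photosystem subunit genes described here are 44 nuclear genes of Arabidopsis thaliana, taken by locus ID from a deposited count table of 27814 rows. The set holds 21 antenna genes, 6 of the LHCA and 15 of the LHCB class, and 23 subunit genes, 12 of the PSA and 11 of the PSB class. By photosystem, 18 belong to photosystem I and 26 to photosystem II. The IDs were listed by gene family, all 44 were in the table, all passed the filter on low counts, and all matched a symbol of the RefSeq annotation (TAIR10.1 assembly). RNA of whole seedlings was counted in 3 libraries each of atd14-1, which carries a mutation in D14, the gene of the strigolactone receptor, of AtCXE15-OE, a line overexpressing the strigolactone-degrading carboxylesterase AtCXE15, and of the wild type Col-0. All 3 groups were untreated and grown at 22 °C with 16 h of light and 8 h of dark, and their age is labelled as both 8 and 10 days. The sources used here do not give the promoter of the overexpression construct, how many lines stand behind AtCXE15-OE or the hour of harvest. Nothing says that the libraries of a group came from separate plants or cultures, so the spread behind each p-value is that between libraries and may be technical.

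Each photosystem is a pigment-protein complex in the thylakoid membrane, with a reaction centre core that separates charge and a peripheral antenna that passes absorbed light energy to it. LHCA proteins form the antenna of photosystem I, and LHCB proteins that of photosystem II, where LHCB1, LHCB2 and LHCB3 make up the major trimers and LHCB4, LHCB5 and LHCB6 the minor monomers that link these trimers to the core. The core subunits that bind most cofactors are encoded in the plastid, while the smaller PSA and PSB subunits described here are encoded in the nucleus, made in the cytosol and imported. Nuclear antenna transcripts are known to be abundant in green tissue, to depend on light, on GLK transcription factors and on signals from the plastid, and to cycle over the day.

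Library totals ranged from 37724263 to 54421069 counts. Levels are given as counts per 1000000 counts of the TMM-scaled library (CPM), and a gene is called where edgeR's quasi-likelihood test gave a Benjamini-Hochberg adjusted p under 0.05 over all 21425 genes tested. The targeted genes went with the labels. D14 (AT3G03990) was at 6.48, 6.81 and 6.92 CPM in atd14-1, 45.1, 43.4 and 45.1 CPM in AtCXE15-OE and 44.8, 44.8 and 45.3 CPM in Col-0. The locus taken here as AtCXE15 (AT5G06570) was at 2.94, 3.09 and 3.08 CPM in atd14-1, 964, 763 and 739 CPM in AtCXE15-OE and 3.73, 3.96 and 4.12 CPM in Col-0. Of 18 genes listed as root markers edgeR called 0 in any comparison (unadjusted p under 0.05 for 1 in atd14-1 and 1 in AtCXE15-OE against Col-0), DESeq2 and limma-voom called 0 in each line against Col-0 (DESeq2 called 2 higher in atd14-1 against AtCXE15-OE), and none was at 0 in any library. Their summed level was 186 to 202 CPM in atd14-1, 172 to 188 CPM in AtCXE15-OE and 174 to 203 CPM in Col-0, ranges that overlap.

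The antenna and photosystem genes were mostly lower in the receptor mutant than in the wild type. Of the 44 genes, 32 were called lower in atd14-1 against Col-0 and 0 higher (37 lower and 0 higher with DESeq2, 34 and 0 with limma-voom), where 6.87% of all genes tested were called lower and 5.06% higher. Among genes with a mean of 100 CPM or more, the level range in which most of these genes lie, 20.2% were called lower. With TMM scaling and all 9 libraries, all 44 log2 fold changes were below 0, with a median of -0.46 against 0.0057 for all genes tested. LHCA6 was above 0 when scaled for library size alone and in 2 fits without 1 library, PSBY in 1 fit without 1 library, and LHCB4.3 when overlapping rows of the table were summed (0.068, edgeR's adjusted p = 0.978). LHCB4.3 supplies 1.26% of that sum, which therefore cannot show the direction of LHCB4.3 itself. In 40 of the 44 every atd14-1 library was below every Col-0 library, a pattern found in 15.8% of all genes. Together the 44 genes took up 6.63, 6.22 and 6.82% of all counts in the atd14-1 libraries, 8.45, 8.12 and 7.96% in the AtCXE15-OE libraries and 8.93, 8.91 and 9.28% in the Col-0 libraries. The 3 groups did not overlap in this share, which was lowest in atd14-1 and highest in Col-0. Without 6 genes whose counts jumped between libraries of a group, described below, the share was 5.93, 5.98 and 6.03% in atd14-1, 7.77, 7.43 and 7.47% in AtCXE15-OE and 7.77, 7.95 and 8.17% in Col-0, with atd14-1 again apart. In seedling RNA a smaller number of green cells and less of these transcripts per cell cannot be told apart.

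**Figure D1:**
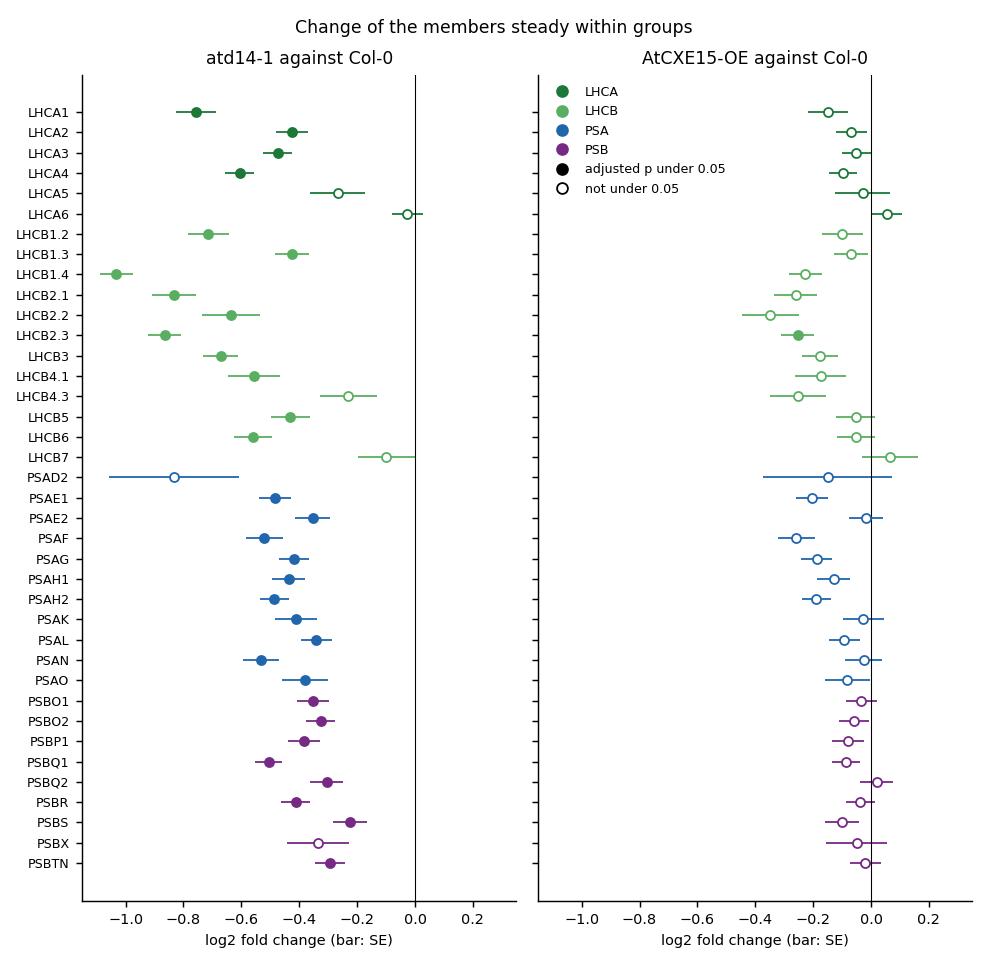
The log2 fold change of the 38 genes whose level varied less than 2-fold between libraries of each group, with its standard error, in atd14-1 (left) and AtCXE15-OE (right) against the same Col-0 libraries. Filled points have an adjusted p under 0.05, 32 on the left and 1 (LHCB2.3) on the right.

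In the photosystem I antenna, the 4 genes of the LHCA1 to LHCA4 belt, whose proteins form a crescent on one side of the core, all fell in atd14-1, with log2 fold changes of -0.76 to -0.42. LHCA1 (AT3G54890, chromosome 3, 20339504 to 20341176, minus strand) was at 1939.9, 1904 and 2162 CPM in atd14-1, 3403, 2872 and 2881 CPM in AtCXE15-OE and 3415, 3419 and 3313 CPM in Col-0. Its atd14-1 values stood clear below the other 6 libraries, and the AtCXE15-OE and Col-0 values touched, since AtCXE15-OE replicate 1 lay within the Col-0 range. The fall in atd14-1 was to 59.2% of the Col-0 mean (log2 fold change -0.76 ± 0.07 SE, edgeR's adjusted p = 9.19e-06). LHCA4 (AT3G47470, chromosome 3, 17493343 to 17495033, minus strand), which pairs with LHCA1 and carries far-red absorbing chlorophylls, was at 2662, 2724 and 2814 CPM in atd14-1, 3912, 3928 and 3832 CPM in AtCXE15-OE and 3999, 4133 and 4348 CPM in Col-0. No 2 groups overlapped for LHCA4, and atd14-1 lay far below the others. Its log2 fold change against Col-0 was -0.61 ± 0.049 SE, edgeR's adjusted p = 3e-06. LHCA3 (AT1G61520, chromosome 1, 22699715 to 22701412, plus strand) was at 2179, 2152 and 2291 CPM in atd14-1, 3039, 2883 and 2959 CPM in AtCXE15-OE and 3036, 3168 and 2999 CPM in Col-0, with all atd14-1 values below a common range of the other groups (log2 fold change -0.47 ± 0.049 SE, edgeR's adjusted p = 2.5e-05). The table's row for LHCA3 spans 2624612 bases and overlaps 646 other rows. The sum of those rows with LHCA3, which supplies 10.8% of it, was not called (-0.10, edgeR's adjusted p = 0.118). Being mostly counts of other rows, that sum cannot show whether LHCA3 changed. LHCA2 fell too, with a log2 fold change of -0.42 (edgeR's adjusted p = 0.000144). Its row spans 505651 bases and supplies 35.6% of the sum with the 155 rows it overlaps. That sum was still called, at a smaller fold change (-0.16, edgeR's adjusted p = 0.0353). It, too, is mostly counts of other rows and cannot show whether LHCA2 changed.

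The 2 remaining LHCA genes are expressed at a far lower level and were not called. LHCA6 (AT1G19150, chromosome 1, 6612630 to 6613972, plus strand), which with LHCA5 is known for joining photosystem I to the NDH complex, was at 64.8, 61.7 and 66.3 CPM in atd14-1, 67.7, 69 and 67 CPM in AtCXE15-OE and 62.5, 65.3 and 68.5 CPM in Col-0. These values overlapped throughout between atd14-1 and Col-0, and the log2 fold change of -0.026 (edgeR's adjusted p = 0.83) was the highest of the class. The sum with the 2 rows that overlap it, of which LHCA6 supplies 22.7%, was called lower (-0.24, edgeR's adjusted p = 0.011). That sum, too, is mostly counts of other rows and cannot show whether LHCA6 changed. LHCA5 had a log2 fold change of -0.27 (edgeR's adjusted p = 0.104), with all atd14-1 libraries below all Col-0 libraries.

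The 3 called genes with the largest reductions, LHCB1.4, LHCB2.3 and LHCB2.1, belong to the major photosystem II antenna. Of the 9 genes for LHCB1, LHCB2 and LHCB3, 7 fell in atd14-1, and the median log2 fold change of the 9 was -0.71. LHCB1.4 (AT2G34430, chromosome 2, 14524607 to 14525918, plus strand) had the smallest adjusted p of all 44 genes. Its level was 1128, 1146 and 1173 CPM in atd14-1, 2123, 1908 and 1994 CPM in AtCXE15-OE and 2248, 2310.2 and 2493 CPM in Col-0. The 3 groups formed 3 separate steps, with atd14-1 lowest and Col-0 highest, and atd14-1 stood at 48.9% of the Col-0 mean (log2 fold change -1.03 ± 0.057 SE, edgeR's adjusted p = 8.01e-08). Summed with the 5 rows that overlap it, a sum of which LHCB1.4 supplies 69.7%, it was no longer called (-0.88, edgeR's adjusted p = 0.285).

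LHCB1 is encoded by 5 related copies. LHCB1.1, LHCB1.2 and LHCB1.3, side by side on chromosome 1, share 95.6% to 96.4% of aligned coding bases, and LHCB1.4 and LHCB1.5, a pair of neighbours on chromosome 2, share 91.4%. Between the clusters 86.7% to 90.4% are shared. The last 90 coding bases of each copy are given here, 5′ to 3′ on the coding strand from the TAIR10.1 reference, with the 15 positions at which the copies differ in capitals, to show where the copies differ.
LHCB1.1: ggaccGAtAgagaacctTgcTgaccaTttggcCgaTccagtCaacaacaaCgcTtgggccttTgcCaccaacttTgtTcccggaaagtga
LHCB1.2: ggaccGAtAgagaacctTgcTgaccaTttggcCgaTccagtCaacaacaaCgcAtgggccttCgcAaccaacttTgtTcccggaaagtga
LHCB1.3: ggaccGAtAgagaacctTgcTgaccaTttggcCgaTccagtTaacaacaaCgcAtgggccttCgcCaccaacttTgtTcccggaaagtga
LHCB1.4: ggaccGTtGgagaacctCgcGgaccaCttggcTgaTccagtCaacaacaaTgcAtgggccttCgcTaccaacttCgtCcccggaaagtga
LHCB1.5: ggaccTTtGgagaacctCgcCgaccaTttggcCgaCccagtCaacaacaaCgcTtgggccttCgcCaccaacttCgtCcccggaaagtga
These stretches lie at chr1:10475089-10475178, minus strand, chr1:10472443-10472532, minus strand, chr1:10478785-10478874, plus strand, chr2:14525529-14525618, plus strand and chr2:14522716-14522805, minus strand. Across whole transcripts, the share of 100-base windows that match another gene exactly was 4.44% for LHCB1.1, 1.51% for LHCB1.2, 4.07% for LHCB1.3, 3.30% for LHCB1.4 and 4.23% for LHCB1.5, so most windows are found in 1 copy alone. The sources used here do not say how reads matching several copies were counted, so the division of those shared reads is uncertain.

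LHCB1.3 had the highest level of all 44 genes per kilobase of the table's gene length, 11796 ± 335 CPM per kb in atd14-1, 15091 ± 608 in AtCXE15-OE and 15833 ± 1235 in Col-0 (SD, n = 3 each). In atd14-1 its log2 fold change was -0.42, against -0.71 for LHCB1.2 (edgeR's adjusted p = 0.000222 and 1.78e-05), a difference between copies that was not tested. Per length, LHCB1.3 made up 64.7, 80.1 and 60.8% of LHCB1 in the atd14-1 libraries, 70.4, 59.7 and 75.6% in the AtCXE15-OE libraries and 56.6, 61.1 and 56.1% in the Col-0 libraries. Its share was highest in atd14-1 replicate 2 and AtCXE15-OE replicate 3, the libraries in which LHCB1.5 was close to 0. The 5 copies summed fell in atd14-1 (-0.64 ± 0.13 SE, edgeR's adjusted p = 0.0196), with LHCB1.5 nearly missing from 1 of the 3 atd14-1 libraries and from none of Col-0.

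All 3 LHCB2 copies, whose protein, like LHCB1, is phosphorylated in state transitions, fell in atd14-1. LHCB2.3 (AT3G27690, chromosome 3, 10255906 to 10257489, plus strand), the copy whose row overlaps no other row of the table, was at 513, 506 and 500.1 CPM in atd14-1, 843, 735 and 744 CPM in AtCXE15-OE and 936, 903 and 928 CPM in Col-0. Each group occupied a range of its own, and the atd14-1 libraries averaged 54.9% of the Col-0 mean (log2 fold change -0.87 ± 0.058 SE, edgeR's adjusted p = 5.82e-07). In RefSeq, 36.3% of the 100-base windows of its transcript lie in AT3G27700 as well, so reads of these 2 genes may not be told apart. Such sharing with another gene was larger for PSAG (55.8%) and PSAH1 (47.0%). It was smaller for PSAE1 (24.0%) and PSAH2 (12.4%). LHCB2.1 (AT2G05100, chromosome 2, 1822990 to 1824480, minus strand) was at 723, 607 and 729 CPM in atd14-1, 1084, 948 and 1028 CPM in AtCXE15-OE and 1174, 1297 and 1195 CPM in Col-0, again with 3 ranges that do not meet (log2 fold change -0.83 ± 0.076 SE, edgeR's adjusted p = 8.16e-06). Its row in the table runs across LHCB2.2, with which it shares 96.6% of coding bases. LHCB2.2 was at 815, 946 and 1012 CPM in atd14-1, 1245, 1089 and 1052 CPM in AtCXE15-OE and 1286, 1448 and 1576 CPM in Col-0, all atd14-1 libraries being lowest and AtCXE15-OE below Col-0 (log2 fold change in atd14-1 against Col-0 -0.64 ± 0.099 SE, edgeR's adjusted p = 0.00186). Summed, the 3 copies were at 2117 ± 107 CPM in atd14-1 and 3581 ± 162 CPM in Col-0 (SD, n = 3 each, log2 fold change -0.76 ± 0.062 SE, edgeR's adjusted p = 3.02e-06). LHCB3, the third component of the trimers, was at 1894 ± 63.6 CPM in atd14-1 and 3018 ± 188 CPM in Col-0 (log2 fold change -0.67 ± 0.061 SE, edgeR's adjusted p = 8.16e-06).

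The minor antenna genes LHCB4.1, LHCB5 and LHCB6 also fell in atd14-1, with log2 fold changes of -0.56, -0.43 and -0.56 (edgeR's adjusted p = 0.00143, 0.000653 and 6.9e-05). The LHCB6 row spans 3399901 bases, and LHCB6 supplies 4.02% of the sum with the rows it overlaps. That sum was not called (-0.075, edgeR's adjusted p = 0.268), but it is mostly counts of other rows and cannot show whether LHCB6 changed. The rare members LHCB7 and LHCB4.3 were not called. LHCB7 (AT1G76570, chromosome 1, 28728998 to 28730851, plus strand), a distant relative in the family, was at 11, 11.3 and 12.6 CPM in atd14-1, 12.6, 13.7 and 12.8 CPM in AtCXE15-OE and 12.1, 13.4 and 11.9 CPM in Col-0. The groups overlapped, and its log2 fold change of -0.099 in atd14-1 (edgeR's adjusted p = 0.602) was the highest of the class. LHCB4.3, also called LHCB8, was at 13.9 ± 0.843 CPM in atd14-1 and 16.3 ± 1.51 CPM in Col-0, a log2 fold change of -0.23 that did not pass (edgeR's adjusted p = 0.162). LHCA5, LHCA6, LHCB4.3 and LHCB7 thus gave 0 calls with edgeR and 0 with limma-voom, 1 with DESeq2 (LHCA5) and 2 at an unadjusted p under 0.05 in edgeR, with a median of -0.16. With overlapping rows summed, LHCA6 was called, as were LHCB1.1, PSAD2 and PSBX among the 44. Lost were 5 calls, those of LHCA3, LHCB1.4, LHCB6, PSBQ1 and PSBR. For LHCA6, LHCB1.1, LHCA3, LHCB6, PSBQ1 and PSBR most counts of the sum came from other rows. Whether LHCA5, LHCA6, LHCB4.3 and LHCB7 changed less than the abundant antenna genes was not tested.

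**Figure D2:**
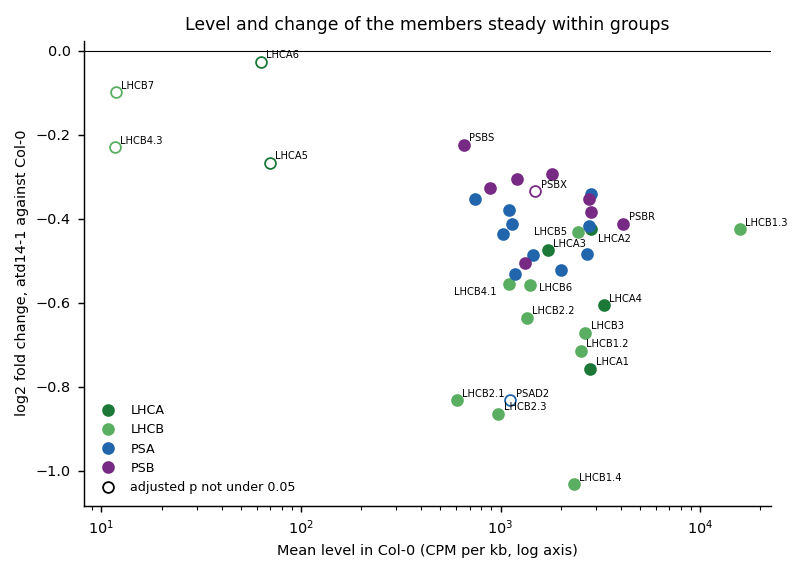
The log2 fold change in atd14-1 against Col-0 set against the mean Col-0 level per kilobase (log axis) for 38 genes, coloured by class, with the antenna genes and 4 others named. The 4 open points at the left are LHCA5, LHCA6, LHCB4.3 and LHCB7, at under 100 CPM per kb, and LHCB1.3 stands alone at the right.

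Most nuclear subunits of photosystem I fell. Of 12 PSA genes 10 were called lower in atd14-1, with log2 fold changes of -0.53 to -0.34, and the median over the 12 was -0.43. PSAH2 (AT1G52230, chromosome 1, 19454798 to 19455668, plus strand), one of 2 genes for the subunit at which the mobile antenna docks, was at 697, 699.8 and 673 CPM in atd14-1, 869.6, 854 and 819 CPM in AtCXE15-OE and 1003, 933 and 963 CPM in Col-0. The ranges of the 3 groups were separate, in the same order as for the LHCB2 genes (log2 fold change -0.49 ± 0.051 SE, edgeR's adjusted p = 2.54e-05). PSAE1 (AT4G28750, chromosome 4, 14202758 to 14204061, minus strand), for a stromal subunit near the ferredoxin site, was at 1363, 1393 and 1286 CPM in atd14-1, 1697, 1645 and 1569 CPM in AtCXE15-OE and 1985, 1867 and 1802 CPM in Col-0, with no overlap between groups (log2 fold change -0.48 ± 0.056 SE, edgeR's adjusted p = 6.22e-05). PSAN (AT5G64040, chromosome 5, 25628521 to 25629708, minus strand), for a lumenal subunit on the plastocyanin side, was at 660.5, 733 and 719 CPM in atd14-1, 971, 1028 and 1001 CPM in AtCXE15-OE and 1001, 950.0 and 1103 CPM in Col-0. Here AtCXE15-OE and Col-0 shared a range and atd14-1 alone was lower (log2 fold change -0.53 ± 0.063 SE, edgeR's adjusted p = 7.92e-05). The smallest reduction of the class was that of PSAL (AT4G12800, chromosome 4, 7521257 to 7522761, plus strand), for a subunit next to PSAH, at 2191, 2130.5 and 2291 CPM in atd14-1, 2755, 2582 and 2516 CPM in AtCXE15-OE and 2736, 2716 and 2921 CPM in Col-0 (log2 fold change -0.34 ± 0.054 SE, edgeR's adjusted p = 0.000834). AtCXE15-OE and Col-0 overlapped for PSAL, and atd14-1 did not reach either.

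The other called PSA genes were PSAE2, PSAF, PSAG, PSAH1, PSAK and PSAO, with log2 fold changes from -0.52 for PSAF, the plastocyanin-docking subunit, to -0.35 for PSAE2. The PSAF row overlaps 85 others, and their sum, of which PSAF supplies 22.9%, was called at a smaller fold change (-0.21, edgeR's adjusted p = 0.0055). Being mostly counts of other rows, it cannot show whether PSAF changed. PSAD2, for the ferredoxin-docking subunit, had 1 atd14-1 library apart from the rest and was not called in the main edgeR fit. It was at 678, 633 and 372 CPM in atd14-1 against 1018, 1009 and 971 CPM in Col-0 (log2 fold change -0.83 ± 0.22 SE, edgeR's adjusted p = 0.0662). DESeq2 and limma-voom called PSAD2 lower, as did edgeR without atd14-1 replicate 3 or with overlapping rows summed. The shares of the 2 PSAH paralogs overlapped between groups, with PSAH1 at 41.6%, 41.9% and 42.9% of PSAH per length in the atd14-1 libraries, 43.5%, 41.3% and 42.0% in the AtCXE15-OE libraries and 40.6%, 41.1% and 42.2% in the Col-0 libraries. Both paralogs share windows with a gene outside the family, as given above, so these shares are uncertain.

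Among the nuclear subunits of photosystem II, 8 of 11 PSB genes were called lower in atd14-1, with a median log2 fold change of -0.35. All 5 genes of the oxygen-evolving complex, which shields the manganese cluster on the lumenal side, fell, at -0.51 to -0.30. PSBQ1 (AT4G21280, chromosome 4, 11334352 to 11335815, plus strand) led them, at 834, 860.0 and 851 CPM in atd14-1, 1167, 1116 and 1118 CPM in AtCXE15-OE and 1191, 1192 and 1229 CPM in Col-0. The atd14-1 values lay far below a narrow band of the other 6 libraries (log2 fold change -0.51 ± 0.048 SE, edgeR's adjusted p = 1.08e-05). The sum of the PSBQ1 row with 2 overlapping rows, of which PSBQ1 supplies 43.1%, was not called (-0.19, edgeR's adjusted p = 0.169). PSBP1 (AT1G06680, chromosome 1, 2047634 to 2049439, plus strand) was at 2476, 2416 and 2587 CPM in atd14-1, 3229, 3051 and 2966 CPM in AtCXE15-OE and 3261, 3093 and 3411 CPM in Col-0, with AtCXE15-OE and Col-0 overlapping and atd14-1 below both (log2 fold change -0.38 ± 0.055 SE, edgeR's adjusted p = 0.000338). PSBO1 and PSBO2 encode the subunit that stabilises the manganese cluster, and PSBO1, whose row overlaps no other row, was at 2656, 2631 and 2794 CPM in atd14-1, 3531, 3287 and 3260.4 CPM in AtCXE15-OE and 3316, 3374 and 3628 CPM in Col-0. The log2 fold change in atd14-1 was -0.35 for PSBO1, -0.33 for PSBO2 and -0.30 for PSBQ2 (edgeR's adjusted p = 0.000631, 0.000743 and 0.00253).

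PSBR (AT1G79040, chromosome 1, 29735952 to 29737009, plus strand), which helps to attach PSBP, was at 3833, 3671 and 3729.7 CPM in atd14-1, 4635, 5043 and 4899 CPM in AtCXE15-OE and 4913, 4904 and 5136 CPM in Col-0. Its atd14-1 values were again apart from all others (log2 fold change -0.41 ± 0.049 SE, edgeR's adjusted p = 8.01e-05). The PSBR row spans 4646835 bases and supplies 8.15% of the sum with the rows it overlaps. That sum was not called (-0.086, edgeR's adjusted p = 0.263), but it is mostly counts of other rows and cannot show whether PSBR changed. PSBS (AT1G44575, chromosome 1, 16870221 to 16873427, plus strand), the pH sensor of photoprotective quenching and not a structural part of the core, changed least among the called genes. It was at 867, 828 and 876 CPM in atd14-1, 1002, 901 and 898 CPM in AtCXE15-OE and 979, 973 and 1049.9 CPM in Col-0. The atd14-1 libraries were all below the others by a small margin (log2 fold change -0.22 ± 0.058 SE, edgeR's adjusted p = 0.0215), and the call was lost without Col-0 replicate 3, without any 1 of the 3 atd14-1 libraries and when only library size was scaled for (over the fits lacking 1 library, the highest adjusted p was 0.104). PSBTN fell (-0.29, edgeR's adjusted p = 0.00199), while PSBX was at -0.33 without passing (edgeR's adjusted p = 0.0785). DESeq2 called PSBX lower, as did edgeR without Col-0 replicate 2 or with overlapping rows summed.

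**Figure D3:**
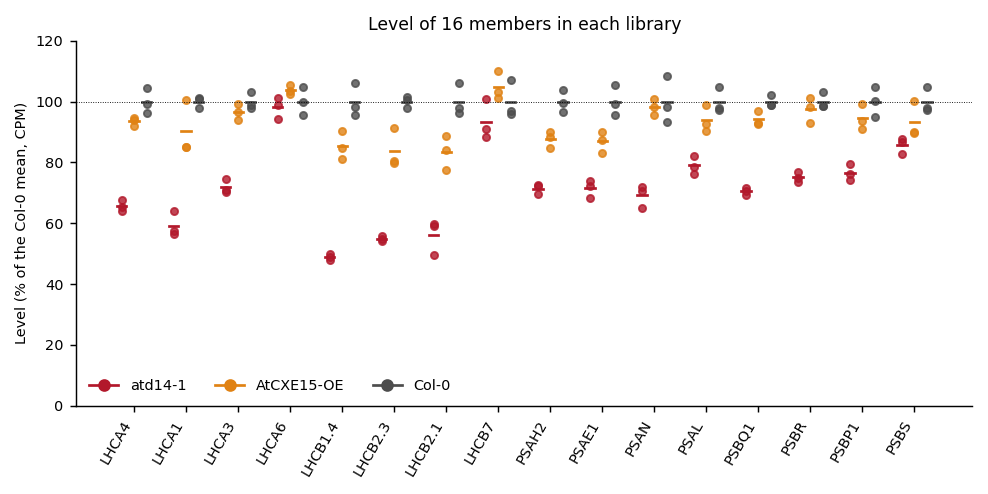
The level of 16 genes in each library as a percentage of the gene's Col-0 mean, with points for libraries and bars for group means. The atd14-1 points lie lowest for LHCB1.4 (mean 48.9%) and LHCB2.3 (54.9%), at 85.6% for PSBS, and overlap Col-0 for LHCA6 and LHCB7.

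Antenna genes were compared with subunit genes, and photosystem I with photosystem II, among the 38 genes steady within groups. The median log2 fold change in atd14-1 was -0.56 for 18 antenna genes, of which 14 were called, and -0.40 for 20 subunit genes, of which 18 were called. In sums, which the most abundant genes dominate, antenna genes took up 3.39, 3.41 and 3.46% of counts in the atd14-1 libraries, 4.64, 4.36 and 4.44% in the AtCXE15-OE libraries and 4.57, 4.82 and 4.87% in the Col-0 libraries. For the subunit genes these shares were 2.54, 2.57 and 2.56% in atd14-1, 3.13, 3.06 and 3.03% in AtCXE15-OE and 3.21, 3.13 and 3.31% in Col-0. The ratio of antenna to subunit counts was therefore 1.33, 1.33 and 1.35 in atd14-1, 1.48, 1.42 and 1.46 in AtCXE15-OE and 1.42, 1.54 and 1.47 in Col-0. It was lower in every atd14-1 library than in any other library, whereas AtCXE15-OE and Col-0 overlapped. Over all 44 genes the ratio was 1.36, 1.24 and 1.41 in atd14-1, 1.36, 1.6 and 1.29 in AtCXE15-OE and 1.43, 1.58 and 1.54 in Col-0, and there atd14-1 lay below Col-0 but overlapped AtCXE15-OE. The median log2 fold change in atd14-1 over all members was -0.56 for 21 antenna and -0.41 for 23 subunit genes.

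The photosystems were compared in the same way. Median log2 fold changes in atd14-1 were -0.44 for 17 photosystem I genes and -0.42 for 21 photosystem II genes, and -0.43 and -0.53 over all 18 and 26. The ratio of photosystem I to photosystem II counts was 0.533, 0.539 and 0.538 in atd14-1, 0.538, 0.538 and 0.533 in AtCXE15-OE and 0.565, 0.541 and 0.534 in Col-0, with overlapping ranges. Over all 44 it was 0.507, 0.569 and 0.498 in atd14-1, 0.525, 0.471 and 0.538 in AtCXE15-OE and 0.511, 0.504 and 0.488 in Col-0, overlapping too. With 3 libraries a group, sums over chosen genes were given no test, and the ratios are descriptions.

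**Figure D4:**
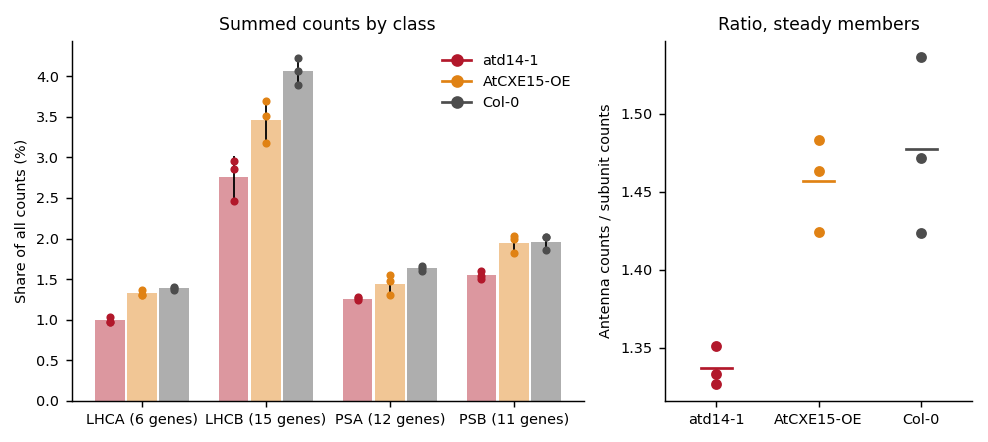
Left, the share of all counts taken by each class in atd14-1, AtCXE15-OE and Col-0, with bars for means, error bars for the SD of 3 libraries and points for libraries. Right, the ratio of antenna to subunit counts among 38 steady genes in each library, on an axis that does not start at 0, lowest in the 3 atd14-1 libraries (1.33 to 1.35).

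In 6 genes the counts differed at least 2-fold between libraries of 1 group, so that a group mean says little. PSBY, for a small photosystem II subunit, was at 3.1, 2.69 and 3.15 CPM in atd14-1, 1352, 2.73 and 1246 CPM in AtCXE15-OE and 1431, 2.91 and 2.78 CPM in Col-0. It was thus either close to 0 or among abundant genes, with high values in AtCXE15-OE replicates 1 and 3 and Col-0 replicate 1. LHCB1.5 was at 4113, 4.71 and 4572 CPM in atd14-1, 2073, 5816 and 6.81 CPM in AtCXE15-OE and 6314, 6334 and 7138 CPM in Col-0, near 0 in 1 atd14-1 and 1 AtCXE15-OE library and high in the rest. PSAD1, for the ferredoxin-docking subunit, was at 1647, 1555 and 1574 CPM in atd14-1, 1959, 2.2 and 1867 CPM in AtCXE15-OE and 2196, 2019 and 2033 CPM in Col-0, near 0 in AtCXE15-OE replicate 2 alone. The 3 others swung less, LHCB1.1 by up to 5.18-fold within a group, PSBW by 2.27-fold and LHCB4.2 by 2.06-fold. None of these 6 genes was called in any comparison in the fit of all 9 libraries with edgeR, while in atd14-1 against Col-0 DESeq2 called PSBY and LHCB4.2 lower and limma-voom LHCB4.2. Other edgeR fits of that comparison called LHCB1.1 with overlapping rows summed, LHCB4.2 without Col-0 replicate 2 and PSAD1 with only the 6 libraries compared. In atd14-1 against AtCXE15-OE, PSAD1 was called without AtCXE15-OE replicate 2 and PSBY by DESeq2. In 36 of the 44 genes the table's row overlaps at least 1 other row, and the sources used here do not say how counts were divided between such rows. The part of this in the jumps was not tested.

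**Figure D5:**
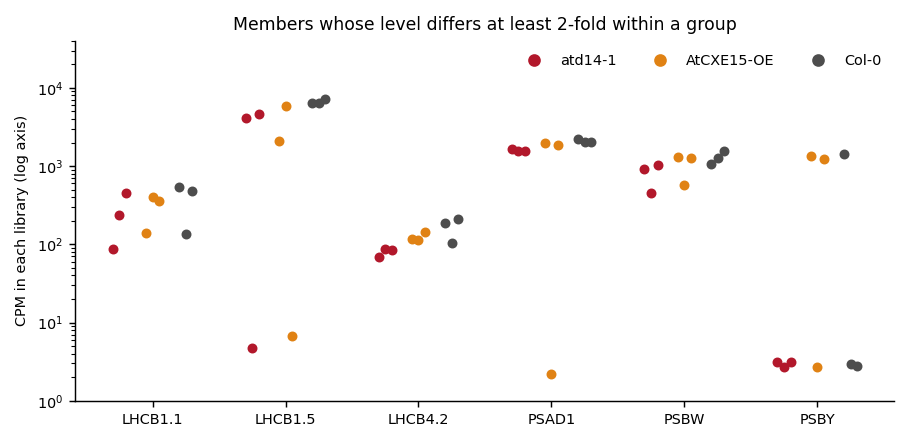
CPM in each library (log axis) of the 6 genes whose level differed at least 2-fold within a group. PSBY, LHCB1.5 and PSAD1 lie under 10 CPM in some libraries and above 1000 CPM in others.

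In AtCXE15-OE, which is compared with the same Col-0 libraries, few of the 44 genes were called. LHCB2.3 was the 1 gene called, lower than in Col-0 (log2 fold change -0.25 ± 0.057 SE, edgeR's adjusted p = 0.0328), where 1.51% of all genes tested were called lower and 0.761% higher. Its libraries given above are separate from those of Col-0, but the call was lost in 5 of the 6 fits that left out 1 library (all but the one without AtCXE15-OE replicate 1, with 0.146 as the highest adjusted p) and in a fit of just these 6 libraries. PSAF (-0.26, edgeR's adjusted p = 0.052) and LHCB1.4 (-0.23, adjusted p = 0.0552) lay just outside the threshold. The number of genes called depended on the tool and on 1 library, with 8 called lower by DESeq2, 1 by limma-voom, 9 by edgeR without AtCXE15-OE replicate 1 and 0 in each of the 5 other fits that left out 1 library. The median over the 44 genes was -0.094 against 0.0038 for all genes tested, -0.098 over the 18 steady antenna genes and -0.080 over the 20 steady subunit genes. Log2 fold changes were below 0 in 40 of the 44, and in 38 when scaled for library size alone. An unadjusted edgeR p under 0.05 was found for 11 of the 44 and for 2762 of the 21425 genes tested. Every AtCXE15-OE library was below every Col-0 library in 14 of the 44 (8.93% of all genes), 7 of them LHCB and 5 PSA genes. The 3 LHCB2 copies summed were at 2922 ± 217 CPM in AtCXE15-OE and 3581 ± 162 CPM in Col-0, which passed the test (-0.29 ± 0.061 SE, edgeR's adjusted p = 0.021).

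The receptor mutant and the overexpression line were compared directly, which uses no Col-0 library in the contrast. Here 30 of the 44 genes were called lower in atd14-1 than in AtCXE15-OE and 0 higher, with 4.12% of all genes called lower and 2.82% higher. The median log2 fold change was -0.33 over the 44 genes, -0.40 over the 18 steady antenna genes and -0.30 over the 20 steady subunit genes. It was -0.31 over the steady photosystem I genes and -0.36 over those of photosystem II. The smallest p-values were those of LHCB1.4 (-0.81 ± 0.057 SE, edgeR's adjusted p = 2.81e-06), LHCB2.3 (-0.61 ± 0.058 SE, adjusted p = 3.56e-05), LHCA4 (-0.51 ± 0.049 SE, adjusted p = 4.12e-05) and PSBQ1 (-0.42 ± 0.048 SE, adjusted p = 0.000183), in all of which each atd14-1 library was below each AtCXE15-OE library, as in 37 of the 44 genes and 13.7% of all genes. Of the 38 steady genes, LHCA5, LHCA6, LHCB2.2, LHCB4.3, LHCB7, PSAD2, PSBS and PSBX were not called, and LHCB4.3 was the 1 gene above 0 (0.022, below 0 in 2 fits without 1 library and with overlapping rows summed). The calls of LHCB4.1, PSAE1, PSAF, PSAG, PSAL and PSAO were each lost in at least 1 of the 6 fits that left out a library, and the other 24 were kept in all 6. With overlapping rows summed 9 of the 30 calls were lost, among them those of LHCB1.4, PSBQ1, LHCA3, PSBR and PSAH2. A call was gained for 2, LHCA6 (-0.21, edgeR's adjusted p = 0.0398) and LHCB2.2 (-0.42, edgeR's adjusted p = 0.00291). The LHCB2.2 sum is its sum with LHCB2.1, which was called on its own, and is the same as the LHCB2.1 sum. For PSBQ1, LHCA3, PSBR, LHCA6 and LHCB4.3 most counts of the sum came from other rows.

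The promoters of the genes were searched for 5 short motifs that light-regulated and clock-regulated plant promoters are known for, on both strands of the 250 bases before the annotated start. CCAATC, an element described in antenna promoters, was in 10 of 21 antenna promoters, 1 of 23 subunit promoters and 10.2% of 27443 promoters of protein-coding genes. The G-box CACGTG was in 10 of all 44 (6.49% of all promoters), the I-box GATAAG in 9 (12.3%), a site bound by CCA1 (AAAAATCT or AACAATCT) in 6 (8.38%) and the evening element AAAATATCT in 1 (2.36%). The evening element and the CCA1 sites share the ending ATCT, and CCAATC shares CAATC with 1 form of the CCA1 site. A match is a description of letters and not a shown binding site. Of the genes whose promoters are given below, the row of the count table starts inside the RefSeq gene for all but LHCA4. The same holds for others of the 44, such as LHCA2, PSBP1 and PSBS. The bases between the 2 starts were not searched. The LHCB3 window overlaps another gene. So do others of the 44, among them the windows of LHCA1, LHCB4.2, LHCB6, PSAH2 and PSBQ1, which hold matches counted here. The promoters of the 7 major antenna genes that fell, and of LHCA4 and LHCB4.3, chosen after their values and matches were seen, are given from TAIR10.1, each 5′ to 3′ on its gene's strand with motif matches in capitals.
LHCB1.2, chr1:10473503-10473752, minus strand: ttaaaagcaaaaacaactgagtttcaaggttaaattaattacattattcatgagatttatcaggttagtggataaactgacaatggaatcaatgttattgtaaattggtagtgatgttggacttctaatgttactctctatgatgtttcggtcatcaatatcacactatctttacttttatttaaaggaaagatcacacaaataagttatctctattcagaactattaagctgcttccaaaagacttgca
LHCB1.3, chr1:10477635-10477884, plus strand: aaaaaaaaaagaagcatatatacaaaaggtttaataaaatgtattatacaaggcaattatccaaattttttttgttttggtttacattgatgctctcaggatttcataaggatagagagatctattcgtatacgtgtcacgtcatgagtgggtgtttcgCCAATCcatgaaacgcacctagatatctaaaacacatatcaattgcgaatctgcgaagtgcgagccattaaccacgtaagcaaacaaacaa
LHCB1.4, chr2:14524357-14524606, plus strand: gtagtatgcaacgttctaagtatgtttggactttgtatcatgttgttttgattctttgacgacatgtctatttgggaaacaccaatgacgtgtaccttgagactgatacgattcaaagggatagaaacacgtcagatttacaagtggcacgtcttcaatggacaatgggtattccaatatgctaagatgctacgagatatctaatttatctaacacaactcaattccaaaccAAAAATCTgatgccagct
LHCB2.1, chr2:1824481-1824730, minus strand: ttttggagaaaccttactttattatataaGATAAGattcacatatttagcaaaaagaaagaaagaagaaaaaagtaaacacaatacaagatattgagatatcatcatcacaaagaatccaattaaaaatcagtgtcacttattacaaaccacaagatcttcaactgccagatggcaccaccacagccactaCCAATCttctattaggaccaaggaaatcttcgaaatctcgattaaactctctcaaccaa
LHCB2.2, chr2:1800473-1800722, minus strand: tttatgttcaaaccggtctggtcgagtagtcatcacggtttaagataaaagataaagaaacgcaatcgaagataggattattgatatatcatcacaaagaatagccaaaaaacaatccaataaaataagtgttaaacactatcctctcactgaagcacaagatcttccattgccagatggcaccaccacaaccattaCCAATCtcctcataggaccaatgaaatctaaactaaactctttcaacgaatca
LHCB2.3, chr3:10255656-10255905, plus strand: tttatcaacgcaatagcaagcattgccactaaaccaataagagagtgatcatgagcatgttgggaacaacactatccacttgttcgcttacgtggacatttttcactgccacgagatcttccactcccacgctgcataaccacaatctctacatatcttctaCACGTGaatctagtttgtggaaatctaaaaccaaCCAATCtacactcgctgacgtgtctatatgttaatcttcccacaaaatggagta
LHCB3, chr5:22037915-22038164, plus strand: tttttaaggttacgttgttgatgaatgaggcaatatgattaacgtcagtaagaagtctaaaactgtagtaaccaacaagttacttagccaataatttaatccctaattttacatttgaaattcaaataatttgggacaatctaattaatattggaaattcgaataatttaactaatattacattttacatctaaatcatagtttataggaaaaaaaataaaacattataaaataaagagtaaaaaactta
LHCA4, chr3:17495034-17495283, minus strand: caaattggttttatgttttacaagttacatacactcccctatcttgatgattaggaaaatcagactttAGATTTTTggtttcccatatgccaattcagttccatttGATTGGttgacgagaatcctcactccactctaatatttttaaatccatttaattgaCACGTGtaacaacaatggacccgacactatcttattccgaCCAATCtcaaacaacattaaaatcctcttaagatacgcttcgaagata
LHCB4.3, chr2:16745378-16745627, plus strand: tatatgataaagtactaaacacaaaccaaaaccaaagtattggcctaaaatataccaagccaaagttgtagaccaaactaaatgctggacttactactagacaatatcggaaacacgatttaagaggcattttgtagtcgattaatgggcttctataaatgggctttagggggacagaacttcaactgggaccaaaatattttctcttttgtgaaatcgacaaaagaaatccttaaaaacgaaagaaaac
LHCB1.3 and the 3 LHCB2 promoters each hold 1 CCAATC, LHCA4 holds 2 matches of it, 1 on each strand, with a G-box and a CCA1 site, and LHCB1.2, LHCB3 and LHCB4.3 hold none of the 5 motifs. LHCB1.2 and LHCB3 fell further than LHCB2.2 (-0.71 and -0.67 against -0.64), a difference that was not tested. LHCB1.4, which fell most among the steady genes, has no CCAATC and 1 CCA1 site. Among 18 steady antenna genes the median log2 fold change in atd14-1 was -0.62 in the 8 with CCAATC (-0.87 to -0.42) and -0.43 in the 10 without (-1.03 to -0.026). The 10 without it include the 4 rare genes LHCA5, LHCA6, LHCB4.3 and LHCB7. The rest without it were LHCB1.4 (-1.03), LHCB1.2 (-0.71), LHCB3 (-0.67), LHCB6 (-0.56), LHCB5 (-0.43) and LHCA2 (-0.42). From -1.03 to -0.42, they came no nearer to 0 than the 8 with CCAATC. A link between motif and change was not tested.

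Other nuclear genes of the photosynthetic apparatus were also lower in atd14-1, and none of those listed was called higher. Of 14 genes for electron transport and the ATP synthase 8 were called lower in atd14-1 against Col-0 (median log2 fold change -0.33). ATPD, for the delta subunit of the ATP synthase, was at 509, 519.7 and 529.7 CPM in atd14-1, 653, 627 and 638 CPM in AtCXE15-OE and 668, 677 and 697 CPM in Col-0 (log2 fold change in atd14-1 against Col-0 -0.39 ± 0.048 SE, edgeR's adjusted p = 9.59e-05). FD1, a leaf-type ferredoxin gene, had a log2 fold change of -0.51 ± 0.063 SE, edgeR's adjusted p = 0.000102, and AT4G32260 one of -0.33 ± 0.048 SE, adjusted p = 0.000374. Of 18 genes for antenna targeting, photosystem assembly and state transitions 10 were called lower (median -0.24). STN7, the kinase that phosphorylates the mobile antenna, was at 114, 112 and 112 CPM in atd14-1, 133, 136 and 133 CPM in AtCXE15-OE and 147, 149 and 155 CPM in Col-0. Its 3 groups did not overlap, with atd14-1 lowest (log2 fold change in atd14-1 against Col-0 -0.41 ± 0.045 SE, edgeR's adjusted p = 3.37e-05). The thylakoid curvature gene CURT1B (-0.49) and the photosystem II assembly factor HCF136 (-0.37) fell too (edgeR's adjusted p = 8.34e-05 and 0.000171). Of 8 LHC-like genes 3 were called lower, OHP2 (-0.54 ± 0.052 SE, edgeR's adjusted p = 1.33e-05), AT5G02120 (-0.39, adjusted p = 0.0237) and LIL3:2 (-0.17, adjusted p = 0.0336). Of 20 photosystem genes encoded in the chloroplast, 16 had enough counts for the test in these poly(A) libraries, and edgeR called 0 of them in any comparison. In atd14-1 against Col-0 10 of the 16 were below 0, with log2 fold changes of -0.87 to 0.29 and a median of -0.18. DESeq2 and limma-voom also gave 0 calls there, with 1 gene at an unadjusted p under 0.05 in edgeR (in atd14-1 against AtCXE15-OE, DESeq2 called 1 lower).

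Regulators of photosynthesis genes were among those that changed. Of 9 transcription and plastid signalling regulators 6 were called lower in atd14-1 against Col-0 and 0 higher. GLK2, a transcription factor known to activate antenna genes, was at 134, 136 and 134 CPM in atd14-1, 160.4, 163 and 164 CPM in AtCXE15-OE and 195, 188 and 195 CPM in Col-0. Its groups did not overlap, and it was called lower in atd14-1 (log2 fold change -0.52 ± 0.044 SE, edgeR's adjusted p = 4.14e-06) and in AtCXE15-OE (log2 fold change -0.25 ± 0.044 SE, edgeR's adjusted p = 0.00754) against Col-0. Its homologue GLK1 was at 236 ± 7.86 CPM in atd14-1 and 237 ± 6.49 CPM in Col-0 and was not called (log2 fold change -0.0045 with edgeR's adjusted p = 0.977). GUN4 and GUN5, which act in chlorophyll synthesis and plastid signalling, fell in atd14-1 (-0.50 and -0.49, edgeR's adjusted p = 4.28e-05 and 0.000174). In AtCXE15-OE against Col-0, GLK2, GUN4 and OHP2 were the 3 genes called by edgeR of the 4 nuclear lists, all lower, while DESeq2, limma-voom and scaling for library size alone each called 1 electron transport gene higher.

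Clock genes, of which CCA1 is known to bind antenna promoters, moved in both directions. In atd14-1 against Col-0, 7 of 14 were called lower and 3 higher, and in AtCXE15-OE against Col-0, 2 lower and 3 higher. CCA1, a morning-phased transcription factor of the clock, was at 58.1, 57.3 and 58.5 CPM in atd14-1, 68.9, 82 and 76.7 CPM in AtCXE15-OE and 101, 95.1 and 95.5 CPM in Col-0, with 3 separate ranges (log2 fold change in atd14-1 against Col-0 -0.75 ± 0.061 SE, edgeR's adjusted p = 3.17e-06). The coactivator genes LNK2 and LNK1 fell, with log2 fold changes of -0.99 and -0.45 (edgeR's adjusted p = 7.97e-07 and 4.28e-05), while PRR3 rose (0.50, adjusted p = 0.000488). No harvest hour is given, and the part of clock phase, of GLK2 or of the number of green cells in the lower antenna transcripts was not tested.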

How the data were processed

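Poly(A) RNA was sequenced without strand information, per the labels' protocols, and gene counts were deposited by the authors as raw counts, not normalized. The submitters' processing notes name the TAIR10 build, the aligner HISAT2, SAMtools 0.1.18 and Picard, and DESeq 1.39.0. The 448 rows without a locus ID were not removed, so those that passed the filter count in library sizes and tests. All 9 libraries were fitted in 1 model of group means with edgeR 4.0.16 (TMM, filterByExpr, robust quasi-likelihood), and p-values were adjusted by Benjamini-Hochberg over 21425 genes, with a threshold of 0.05. DESeq2 1.42.0, limma-voom (limma 3.58.1), other scalings and filters, and fits without each library were tried as alternatives. The scripts were tested on simulated data. Standard errors are the log2 fold change divided by the square root of F. The members and gene lists were chosen with earlier results of these data known. Genes given in full were, in each class, the 3 with the smallest p and the 1 with the highest log2 fold change in atd14-1 against Col-0, genes called in AtCXE15-OE, the 4 with the smallest p in atd14-1 against AtCXE15-OE and, per other list, the 3 with the smallest p; further genes were chosen after their values were seen. Sequences, motifs and gene positions come from RefSeq TAIR10.1.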

Additional observations from a re-analysis of the deposited data

How the results depend on the processing

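In atd14-1 against Col-0 the number of genes called stayed within 1.5 times the 32 reported under the alternatives that count single genes (with paralog copies summed, 24 of 31 genes and family sums were called, 17 of them single genes), and 31 of the 32 calls held in all 6 fits without 1 library. The 1 call in AtCXE15-OE against Col-0 was less stable, becoming 3 with RLE size factors, 2 without a filter, 3 with the stricter filter (10 CPM in 3 libraries), 0 with only the 6 libraries compared, 8 with DESeq2, 2 with paralog copies summed (PSAF and the LHCB2 sum), 3 with overlapping rows summed and 0 to 9 without 1 library. The 3 with overlapping rows summed are LHCB2.3 and 1 sum, of LHCB2.1 with LHCB2.2, that is counted for both of these genes. For the 49 other genes of the pathway, the 3 calls in AtCXE15-OE against Col-0 became 9 with DESeq2, 5 with limma-voom and 1 to 7 without 1 library, and the 21 in atd14-1 against AtCXE15-OE became 12 to 17 without 1 library. Without the 6 unsteady genes, an alternative chosen after seeing the data, the summed share was 5.98% in atd14-1, 7.56% in AtCXE15-OE and 7.97% in Col-0. LHCA6 in atd14-1 against Col-0 turned to 0.050 with library size only and ranged over -0.059 to 0.0076 without 1 library (above 0 without replicate 3 of Col-0 or replicate 2 of atd14-1). Among the genes given in full, PSAN in AtCXE15-OE against Col-0 ranged over -0.073 to 0.037, above 0 without Col-0 replicate 3, the fit in which 9 of the 44 genes turned. With overlapping rows summed, AtCXE15-OE against Col-0 turned to -0.035 for LHCA6, 0.48 for LHCB1.4, -0.14 for LHCB7, 0.021 for PSBQ1 and 0.0067 for PSBR, and LHCB7 in atd14-1 against AtCXE15-OE to 0.036, among 7 and 4 of the 44 genes that turned, LHCB4.3 furthest (1.58 and -1.51). Of its sum LHCB4.3 supplies 1.26%, LHCB7 0.143%, PSBR 8.15%, LHCA6 22.7% and PSBQ1 43.1%. These sums are mostly counts of other rows and cannot show the direction of these genes. LHCB1.4 supplies 69.7% of its sum, and why that sum turned was not tested. With library size only, 2241 genes were called higher and 968 lower in atd14-1 against Col-0, where TMM gave 1084 higher and 1472 lower. Same-numbered libraries share only a number: their deviations had correlations of -0.049 to 0.043, not every library correlated best with its own number, and the fit with a replicate block called 32, 1 and 30 of the 44 genes in the 3 comparisons, with medians of -0.46, -0.094 and -0.34.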
